A study of Mus musculus with 29 samples.

Results

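Orphan, metabolite and lipid receptors were examined in bone marrow pro-B cells with and without Pax5, the transcription factor that commits progenitors to the B cell lineage. All entries of the mm9 expression tables named Gpr, Ffar, P2ry, S1pr, Lpar, Ptger or Adora with a number were taken, which gave 124 of 24732 entries. The family was selected on the measured rise of Gpr25 and Ffar2 on loss of Pax5, so the values of those 2 genes are given as a description without a test. The other receptors entered by name alone.

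The RNA-seq libraries were all from sorted C57BL/6 cells taken directly from the animal, with 3 wild-type, 2 Pax5(-/-) and 3 Pax5(+/+) Meox2-cre libraries. In the study's methods, both genotypes were gated as B220+ Kit+ cells, but CD2, IgM and IgD were used to exclude cells from the wild-type gate and Ly6D to include cells in the Pax5-deficient gate. The genotypes were therefore not sorted through the same gate, and the effect of the gate and of the genotype cannot be told apart. In the Meox2-cre mice, which were used young, Cre is expressed ubiquitously from the Meox2 locus, and the labels call these cells pooled and Pax5(+/+), whereas the study's list of sequencing experiments gives a heterozygous Pax5 genotype for them. The ages of the wild-type and Pax5(-/-) mice are not given in the sources used here, nor do the labels say whether the libraries of a genotype came from separate animals, so the p-values measure only the spread between these libraries.

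Most of these receptors are G protein-coupled receptors, proteins that thread through the plasma membrane several times and pass a ligand signal on to heterotrimeric G proteins. Their ligands include short-chain fatty acids (Ffar2), extracellular nucleotides (P2ry receptors), lysophospholipids (S1pr, Lpar, P2ry10 and Gpr174), prostaglandin E2 (Ptger) and adenosine (Adora). In lymphocytes and their progenitors such receptors are best known for guiding migration and retention, as S1pr1 does for exit into the blood, and many Gpr genes still have no agreed ligand. A few Gpr names belong to membrane proteins that are not receptors of this kind, such as Gpr89, a Golgi channel protein, and Gpr155, a lysosomal protein.

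Levels are TPM, a transcript abundance relative to all transcripts of a library, which is divided by gene length and so can be compared between genes. Every library was scaled to a sum of 1000000, which hides its depth in reads, and relative depths from low values ranged from 0.855 to 1.54 times that of the first wild-type library. Pax5 itself was listed at 342, 386 and 391 TPM with wild-type genotype and at 43.0 and 39.1 TPM without Pax5. The genotypes were compared with limma on log2(TPM + 0.5), where fold changes of low genes come out too small, over the 12066 entries whose mean exceeded 1 TPM in wild-type or Pax5(-/-) cells, and all adjusted p-values below are from this fit. A gene is termed called if its adjusted p is below 0.05, it changes more than 3-fold and one of the genotypes averages over 5 TPM. The 5 libraries can be split 3 against 2 in only 10 ways, so an exact permutation test of 1 gene cannot give a p below 0.1.

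Promoter sequences are shown for 4 called receptors: Gpr25, with the largest change, P2ry13 on chromosome 3, and P2ry10 and Gpr174 on the X chromosome. They are RefSeq windows of build GRCm38.p6, reaching from 250 bases before to 50 bases after the annotated start, and capitals mark GAGGAA, a core bound by PU.1 and other ETS factors, and TGTGGT, a core bound by Runx factors, on either strand.
Gpr25 (chr1:136260877-136261176, minus strand): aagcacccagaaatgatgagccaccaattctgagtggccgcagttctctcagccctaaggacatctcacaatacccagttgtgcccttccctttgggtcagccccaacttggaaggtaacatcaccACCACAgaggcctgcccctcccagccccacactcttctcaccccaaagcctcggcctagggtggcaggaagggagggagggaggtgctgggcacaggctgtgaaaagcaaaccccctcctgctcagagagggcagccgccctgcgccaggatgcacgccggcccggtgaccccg
P2ry13 (chr3:59210833-59211132, minus strand): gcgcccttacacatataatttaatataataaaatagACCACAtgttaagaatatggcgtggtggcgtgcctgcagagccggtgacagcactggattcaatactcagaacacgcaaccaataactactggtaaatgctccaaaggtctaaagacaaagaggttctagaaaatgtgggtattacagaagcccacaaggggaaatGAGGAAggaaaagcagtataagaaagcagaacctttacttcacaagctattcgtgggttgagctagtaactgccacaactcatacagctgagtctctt
P2ry10 (chrX:107089083-107089382, plus strand): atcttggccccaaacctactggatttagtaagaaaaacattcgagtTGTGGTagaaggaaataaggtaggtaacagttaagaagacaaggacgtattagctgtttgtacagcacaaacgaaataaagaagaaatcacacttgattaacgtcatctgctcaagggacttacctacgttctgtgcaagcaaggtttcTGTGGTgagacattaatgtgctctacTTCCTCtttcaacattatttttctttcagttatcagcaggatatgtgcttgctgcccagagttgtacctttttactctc
Gpr174 (chrX:107284096-107284395, plus strand): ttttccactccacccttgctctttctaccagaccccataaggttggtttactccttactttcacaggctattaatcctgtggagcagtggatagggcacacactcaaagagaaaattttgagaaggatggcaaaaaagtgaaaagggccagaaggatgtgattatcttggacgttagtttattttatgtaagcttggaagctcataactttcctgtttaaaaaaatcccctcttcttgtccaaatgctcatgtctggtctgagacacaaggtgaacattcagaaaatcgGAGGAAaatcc
For P2ry10, the window that holds both motifs is shown out of 2 listed.

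Of the 11 called receptors, 10 had a listed promoter, with 16 windows in all, some of which overlap. GAGGAA was found in 7 of the 16 windows and in 28.1% of all 32544 distinct promoter windows. TGTGGT was also found in 7 of the 16 windows, against 16.7% of all windows. CACCTG, a core bound by E proteins, was found in 3 of the 16 windows and in 20.3% of all. GCGTGAC, letters from the Pax5 recognition sequence, occurred in 0 of the 16 windows and in 2.10% of all. These matches describe the letters of the windows, and binding was not examined.

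Among the 124 receptor entries, 21 were listed at 0 in all 5 libraries and 46 passed the filter of 1 TPM. Of the 124, 36 had a mean above 1 TPM in wild-type and 43 in Pax5(-/-) cells, and 30 exceeded 5 TPM in at least one genotype. One adhesion receptor dominated: Gpr56 alone made up 61.6% of the summed TPM of all 124 entries in wild-type and 37.6% in Pax5(-/-) cells. The summed TPM of the 124 entries lay at 1737, 2110 and 1754 in wild-type and at 2147 and 2074 in Pax5(-/-) libraries, so the totals overlapped between the genotypes.

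**Figure D1:**
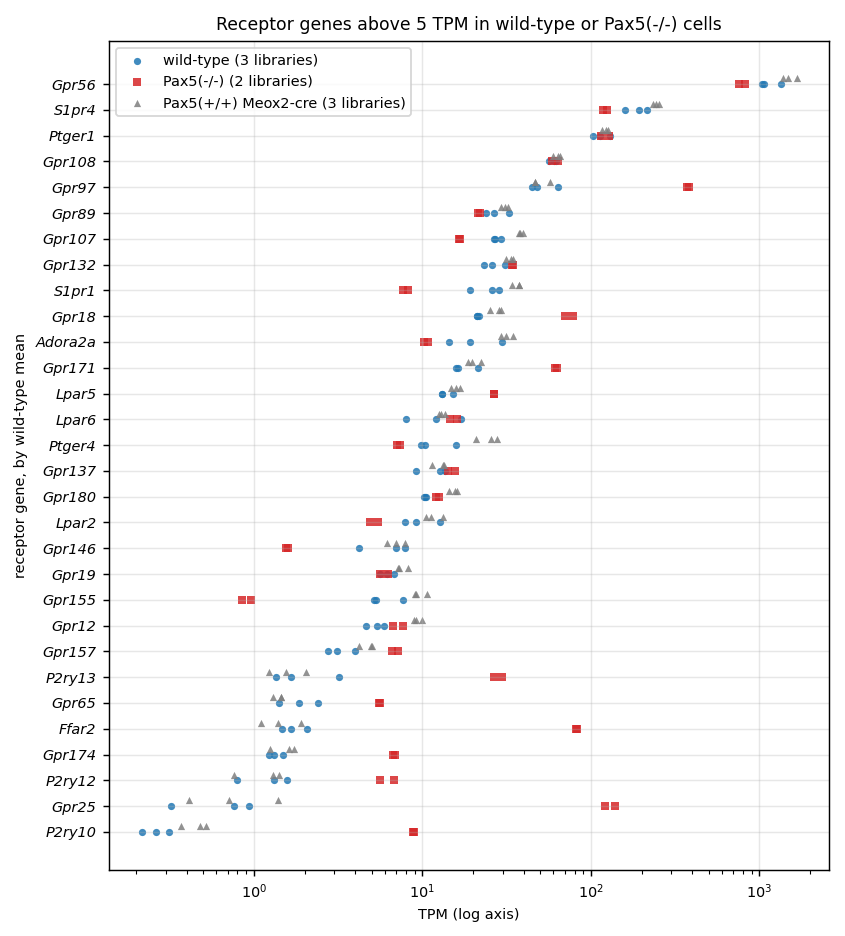
TPM (log axis) of the 30 receptor genes above 5 TPM in a genotype, ordered by wild-type mean, with 1 point per library for wild-type, Pax5(-/-) and Meox2-cre cells. Gpr25 moved from below 1 TPM to 121 and 139.7 TPM, while Gpr56 stayed the most abundant in all libraries.

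In Pax5(-/-) cells, 7 receptors besides Gpr25 and Ffar2 were called higher (P2ry10, P2ry13, Gpr97, Gpr174, P2ry12, Gpr18 and Gpr171) and 2 were called lower (Gpr155 and Gpr146). Gpr25 and Ffar2 also met these criteria, but as the family was selected on them they are described without a test. Only genes above 5 TPM in a genotype could be called, among them 30 receptors. Over all genes that could be called, 3.35% were called higher and 3.89% lower. Without the fold and level thresholds, 16 of the receptors tested besides those 2 were higher and 11 lower at an adjusted p below 0.05, against 15.6% higher and 21.5% lower of all genes tested. Of the 46 receptors tested, 10 passed the filter only through the Pax5(-/-) mean and had to be higher there (Gpr25, P2ry10, P2ry2, P2ry14, Ptger2, Ptger3, S1pr3, Gpr62, Gpr124 and Gpr160), and 3 passed only through the wild-type mean (Gpr155, Ffar1 and Gpr152). The values of these genes are given without a p. Of the 32 receptors above 1 TPM in both genotypes, Ffar2 left out, 6 were called higher and 1 lower. The libraries of the genotypes did not overlap for 37 of the 46, and for 63.4% of all genes tested. The median log2 fold change was 0.36 over the 46 receptors and -0.12 over all genes tested. As the family was picked with this contrast in view, nothing is read from these shares.

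**Figure D2:**
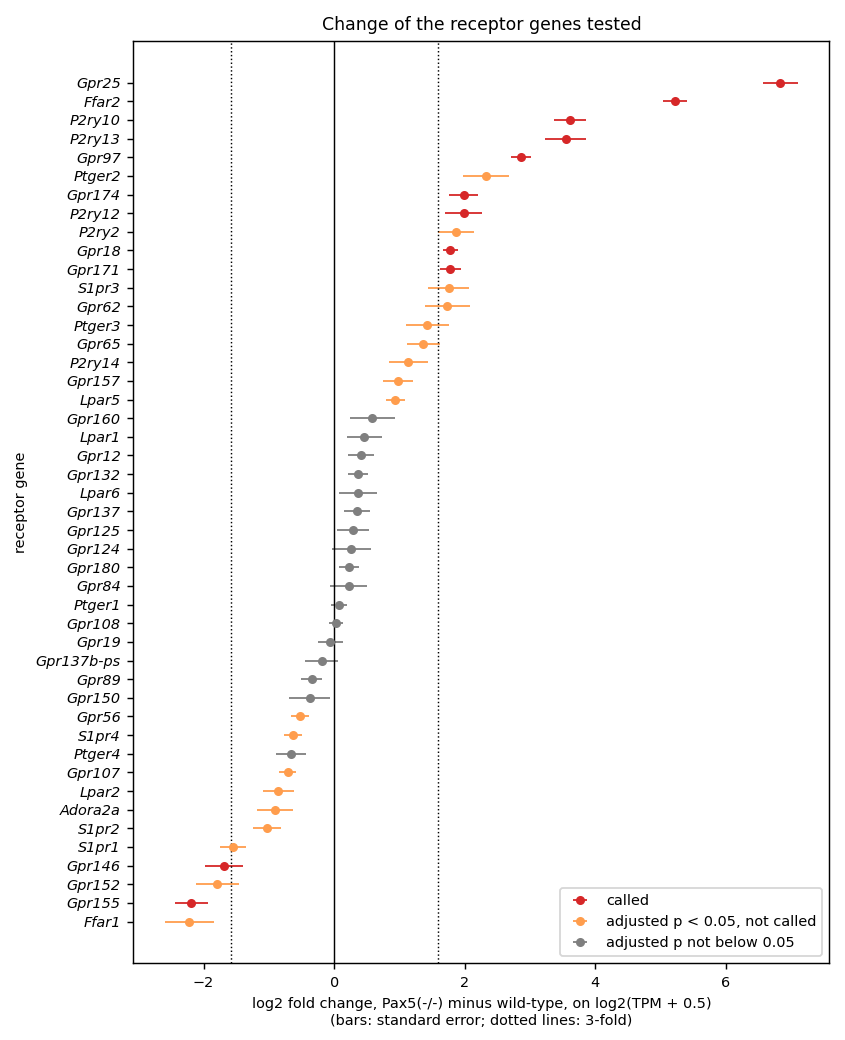
Log2 fold change (Pax5(-/-) minus wild-type, on log2(TPM + 0.5)) of the 46 receptor genes tested, with standard errors as bars and the 3-fold threshold dotted. Gpr25 and Ffar2 stand at 6.84 and 5.22, while Gpr155 and Ffar1 lie lowest at -2.19 and -2.22.

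Gpr25, an orphan receptor known from lymphocytes, was listed at 0.323, 0.760 and 0.937 TPM in wild-type and at 139.7 and 121 TPM in Pax5(-/-) libraries. It thus went from below 1 TPM, where 38 of the 124 entries had a higher wild-type mean, to the level of S1pr4 (118 and 125 TPM). Its log2 fold change was 6.84 (SE 0.27), and the ratio of the mean TPM was 194. In mm9 the gene lies on chromosome 1 from 138155491 to 138157450, where GENCODE also lists an opposite-strand gene, Gm17543, that shares 838 exonic bases with it.

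Ffar2, a receptor for acetate, propionate and other short-chain fatty acids, was listed at 2.06, 1.67 and 1.47 TPM in wild-type and at 82.0 and 83.1 TPM in Pax5(-/-) libraries. Its log2 fold change was 5.22 (SE 0.19), with a ratio of means of 47.6. Its neighbours on chromosome 7 did not share this pattern of levels. Ffar3, the other receptor for short-chain fatty acids, was listed at 0 in all libraries except 1 Pax5(-/-) library at 0.0911 TPM. Ffar1, a receptor for long-chain fatty acids, had 2.24, 1.38 and 3.39 TPM in wild-type and 0 and 0.182 TPM in Pax5(-/-) libraries (log2 fold change -2.22, SE 0.37), and stayed below 5 TPM.

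The lysophosphatidylserine receptors P2ry10 and Gpr174 lie within 200000 bases of each other on the X chromosome, and both had higher values in Pax5(-/-) cells. P2ry10 was listed at 0.314, 0.264 and 0.216 TPM in wild-type and at 8.85 and 8.90 TPM in Pax5(-/-) libraries, a log2 fold change of 3.62 (SE 0.24), and passed the filter only through the latter. Gpr174 was listed at 1.48, 1.31 and 1.23 TPM in wild-type and at 6.88 and 6.68 TPM in Pax5(-/-) libraries, a log2 fold change of 1.99 (SE 0.22, adjusted p = 0.00055 from limma). Both receptors thus reached similar levels below 10 TPM without Pax5. The other receptor of this class, Gpr34, was listed at 0 in all 3 wild-type libraries and at 1.17 and 0.820 TPM in Pax5(-/-) libraries, too low for the filter. Lpar4, a lysophosphatidic acid receptor within 200000 bases on the other side of P2ry10, did not exceed 0.0598 TPM in any of the 5 libraries.

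Of the 7 receptors for extracellular nucleotides, 2 were above 1 TPM in both genotypes, P2ry13 and P2ry12, and both were called higher. The share called higher over all genes that could be called was 3.35%. P2ry13, a receptor for ADP, was listed at 3.21, 1.67 and 1.36 TPM in wild-type and at 29.9 and 26.7 TPM in Pax5(-/-) libraries (log2 fold change 3.55, SE 0.31, adjusted p = 0.00018 from limma). P2ry12, the ADP receptor best known from platelets, was listed at 1.57, 0.797 and 1.31 TPM in wild-type and at 5.64 and 6.80 TPM in Pax5(-/-) libraries (log2 fold change 1.98, SE 0.28, adjusted p = 0.0017 from limma). The list of 5 platelet markers summed to 12.2 to 20.4 TPM in wild-type and 34.0 to 36.2 TPM in Pax5(-/-) libraries, which did not overlap. Within that list, Gp9 was called higher (4.83 to 8.12 against 28.3 and 33.9 TPM), whereas Pf4 and Itga2b had lower means in Pax5(-/-) cells without passing the test. Their part in the result was not tested. P2ry14, which binds UDP-glucose, and P2ry2, which binds ATP and UTP, had log2 fold changes of 1.14 and 1.86 but were below 1 TPM in wild-type and below 5 TPM in all libraries. P2ry6 and P2ry1, which did not pass the filter, had lower values in Pax5(-/-) cells. P2ry6, a UDP receptor next to P2ry2, was listed at 0.462 to 0.894 TPM in wild-type and at 0.0773 and 0.214 TPM in Pax5(-/-) libraries, and the ADP receptor P2ry1 at 0.5096 to 0.722 TPM and at 0.380 and 0.273 TPM.

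P2ry13 and P2ry12 belong to a run of receptor genes that spans 166 kb on chromosome 3 in mm9, inside the gene Med12l on the opposite strand, and the 4 described here share no exonic bases with it. The run also holds Gpr171, an orphan for which a neuropeptide ligand has been proposed, which was listed at 15.9, 16.3 and 21.5 TPM in wild-type and at 61.3 and 62.8 TPM in Pax5(-/-) libraries. Its log2 fold change was 1.78 (SE 0.16, adjusted p = 0.0002 from limma). Med12l had a mean of 1.28 TPM in wild-type and 2.97 TPM in Pax5(-/-) cells.

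**Figure D3:**
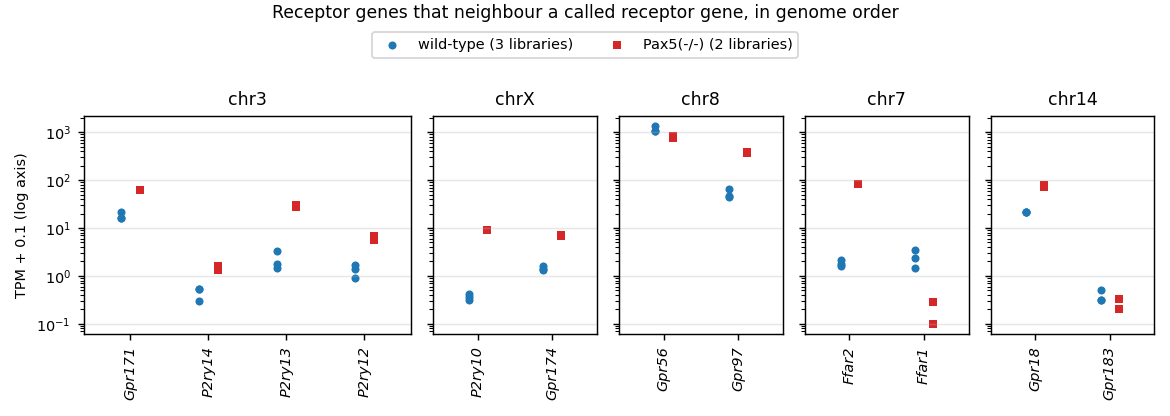
TPM + 0.1 (log axis) of called receptor genes and of receptor genes within 200000 bases of one, where a library exceeded 0.3 TPM, in genome order, with 1 point per wild-type or Pax5(-/-) library. On chromosome 3, the 4 plotted genes are higher without Pax5, while none of the plotted neighbours of Ffar2, Gpr97 and Gpr18 on chromosomes 7, 8 and 14 passed the test as higher.

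The neighbouring adhesion receptors Gpr56 and Gpr97 on chromosome 8 moved in opposite directions. Gpr97, known from granulocytes and from B cells, was listed at 45.0, 47.6 and 63.6 TPM in wild-type and at 372 and 382 TPM in Pax5(-/-) libraries (log2 fold change 2.86, SE 0.15, adjusted p = 2.1e-05 from limma). Gpr56, known from stem cells and cytotoxic lymphocytes, was listed at 1062, 1348 and 1038 TPM in wild-type and at 826 and 762 TPM in Pax5(-/-) libraries (log2 fold change -0.52, SE 0.14, adjusted p = 0.020 from limma). The fall of Gpr56 was small beside that rise, and its adjusted p was 0.116 after median ratio scaling and 0.115 and 0.198 without either Pax5(-/-) library. Gpr97 and Ffar2 are both known from granulocytes, and the 8 neutrophil or monocyte markers summed to 45.9 to 252 TPM in wild-type and 55.4 to 83.7 TPM in Pax5(-/-) libraries. Of these markers 0 were called higher and 1, Elane, was called lower by limma. The defining neutrophil markers S100a8 and S100a9 were listed at 2.26 to 58.3 and 4.35 to 84.1 TPM in wild-type and at most at 9.41 and 10.3 TPM in Pax5(-/-) libraries. Mpo, the myeloperoxidase of neutrophil and monocyte granules, was listed at 11.1, 34.5 and 19.0 TPM in wild-type and at 37.8 and 42.1 TPM in Pax5(-/-) libraries, which did not overlap (adjusted p = 0.081 from limma). The part of these markers in the result was not tested.

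Gpr18, for which lipid ligands have been proposed, was listed at 21.0, 21.8 and 21.2 TPM in wild-type and at 70.7 and 78.6 TPM in Pax5(-/-) libraries. Its log2 fold change was 1.78 (SE 0.12, adjusted p = 4.9e-05 from limma), and the wild-type libraries differed from one another by less than 1 TPM. Its neighbour Gpr183, the oxysterol receptor that positions mature B cells, stayed at or below 0.416 TPM in all 5 libraries. Both genes lie on chromosome 14. Gpr18 lies within Ubac2, without shared exonic bases, and Ubac2 had means of 131 and 170.4 TPM in wild-type and Pax5(-/-) cells.

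Of the 5 sphingosine-1-phosphate receptors, S1pr4, S1pr1 and S1pr2 were above 1 TPM in both genotypes and were lower at an adjusted p below 0.05 (limma), as were 21.5% of all genes tested. S1pr4, the most abundant of them, was listed at 193, 216 and 159 TPM in wild-type and at 118 and 125 TPM in Pax5(-/-) libraries (log2 fold change -0.63, SE 0.14, adjusted p = 0.011 from limma). S1pr1, the receptor that directs lymphocytes into the blood, was listed at 19.3, 28.7 and 25.9 TPM in wild-type and at 8.26 and 7.66 TPM in Pax5(-/-) libraries (log2 fold change -1.55, SE 0.20, adjusted p = 0.001 from limma). It lay just outside the 3-fold threshold and was called lower with a pseudocount of 0.1, and without the first wild-type or the first Pax5(-/-) library (log2 fold changes -1.60, -1.71 and -1.60). S1pr2, which restrains migration, had 4.55 ± 0.325 TPM in wild-type cells (SD, n = 3) and fell to 1.97 ± 0.102 TPM without Pax5 (SD, n = 2). S1pr3 was listed at 0.136 to 0.226 TPM in wild-type and at 2.31 and 1.35 TPM in Pax5(-/-) libraries. S1pr5 was near 0. Without either Pax5(-/-) library, the adjusted p was 0.109 and 0.0935 for S1pr4 and 0.0814 and 0.0741 for S1pr2.

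Of the 4 lysophosphatidic acid receptors that passed the filter, 1 was higher and 1 lower at an adjusted p below 0.05 (limma). Among all genes tested, 15.6% were higher and 21.5% lower at this level. Lpar5 was listed at 15.3, 13.03 and 13.01 TPM in wild-type and at 26.8 and 26.7 TPM in Pax5(-/-) libraries (log2 fold change 0.94, SE 0.15, adjusted p = 0.0027 from limma). Lpar2 was listed at 9.22, 7.89 and 12.7 TPM in wild-type and at 5.43 and 4.90 TPM in Pax5(-/-) libraries (log2 fold change -0.86, SE 0.23, adjusted p = 0.025 from limma). Lpar6 overlapped between the genotypes (8.003 to 17.0 against 14.6 and 16.1 TPM, adjusted p = 0.35 from limma). It shares 408 exonic bases with Rb1 on the opposite strand, and Rb1 had means of 26.9 and 6.01 TPM. With 1 of the Pax5(-/-) libraries left out, the adjusted p of Lpar5 was 0.055 or 0.0618 and that of Lpar2 was 0.139 or 0.206.

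Of the prostaglandin E2 receptors, Ptger2 and Ptger3 were below 1 TPM in all wild-type libraries. Ptger2, which couples to cyclic AMP, was listed at 0.0336, 0.264 and 0.552 TPM in wild-type and at 3.77 and 2.85 TPM in Pax5(-/-) libraries (log2 fold change 2.33, SE 0.36). Ptger3 was listed at 0.0627 to 0.246 TPM in wild-type and at 1.76 and 0.975 TPM in Pax5(-/-) libraries. Ptger4, the other receptor coupled to cyclic AMP, was listed at 9.78, 15.9 and 10.4 TPM in wild-type and at 7.12 and 7.37 TPM in Pax5(-/-) libraries. The libraries did not overlap, but its adjusted p was 0.061 (limma), and 0.0341 without the first wild-type library. The entry for Ptger1 carries a mark for overlap in its name, and its values (104 to 129 against 115 and 128 TPM) are uncertain, since reads were counted without strand.

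Of the adenosine receptors, only Adora2a passed the filter, at 14.3, 29.6 and 19.3 TPM in wild-type and 10.3 and 10.8 TPM in Pax5(-/-) libraries (log2 fold change -0.91, SE 0.28, adjusted p = 0.039 from limma). The spread between the wild-type libraries was large, and the adjusted p lay between 0.0687 and 0.217 without the second or the third wild-type library or either Pax5(-/-) library. Gpr65, a receptor that senses protons, rose from 1.42, 1.85 and 2.39 TPM to 5.59 and 5.54 TPM (log2 fold change 1.37, SE 0.25, adjusted p = 0.0054 from limma). Among the receptors above 5 TPM it was the nearest higher one below the 3-fold threshold, and its adjusted p was 0.0629 and 0.0686 without either Pax5(-/-) library. The other abundant proton sensor, Gpr132, was listed at 23.2 to 31.0 TPM in wild-type and 34.2 and 34.5 TPM in Pax5(-/-) libraries (adjusted p = 0.097 from limma). After median ratio or quantile scaling, its adjusted p was 0.0146 and 0.0134, and without the third wild-type library 0.0262.

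Gpr155, a lysosomal cholesterol-sensing protein, had the largest fall among the called genes. It was listed at 5.29, 5.14 and 7.63 TPM in wild-type and at 0.855 and 0.963 TPM in Pax5(-/-) libraries (log2 fold change -2.19, SE 0.25). Gpr146, an orphan linked to cholesterol metabolism in liver, was listed at 4.23, 7.85 and 6.99 TPM in wild-type and at 1.54 and 1.59 TPM in Pax5(-/-) libraries (log2 fold change -1.69, SE 0.29, adjusted p = 0.0038 from limma). It lay just inside the 3-fold threshold and shares 678 exonic bases with D830046C22Rik on the same strand, whose means were 1.72 and 0.446 TPM. Its call was lost without the second wild-type library (log2 fold change -1.53) and without either Pax5(-/-) library (adjusted p = 0.0566 and 0.0623), and under 4 other settings given with the alternatives.

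Among the remaining genes above 5 TPM, the Golgi protein Gpr107 had 27.7 ± 1.48 TPM in wild-type cells (SD, n = 3) and fell to 16.7 ± 0.164 TPM without Pax5 (SD, n = 2), and the orphan Gpr157 rose from 3.29 ± 0.632 TPM to 6.90 ± 0.407 TPM. Both had an adjusted p below 0.05 (0.0049 and 0.013, limma), which was lost without either Pax5(-/-) library (0.0629 and 0.0751 for Gpr107, 0.124 and 0.106 for Gpr157). Gpr108 (59.9 ± 3.14 against 61.2 ± 3.39 TPM), Gpr89 (27.8 ± 4.57 against 21.6 ± 0.415 TPM), Gpr137 (11.8 ± 2.32 against 15.0 ± 0.956 TPM) and Gpr180 (10.4 ± 0.138 against 12.3 ± 0.309 TPM) had adjusted p-values between 0.14 and 0.83 (limma), but that of Gpr137 was 0.0496 after quantile normalization. On the opposite strand, Gpr137 shares 517 exonic bases with Bad and Gpr89 shares 1333 with Pdzk1. As reads were counted without strand, the values of Gpr137 and Gpr89 are uncertain as well. The orphans Gpr12 and Gpr19 had means of 5.32 and 6.20 TPM in wild-type and 7.22 and 5.93 TPM in Pax5(-/-) cells and also did not pass, but the adjusted p of Gpr12 was 0.0469 after median ratio scaling (limma). Below 5 TPM, the means of Gpr62 were 0.168 TPM in wild-type and 1.78 TPM in Pax5(-/-) cells, and those of Gpr152 were 1.49 and 0.0671 TPM.

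The same genes were read in the Pax5(+/+) Meox2-cre libraries, whose reads were aligned to mm10 with other software, so levels are given side by side without a test. All 124 entries were found, 18 of them under another symbol. Across the 37 genes above 1 TPM in either set, Pearson's r between the mean log2(TPM + 0.5) of the Meox2-cre and wild-type libraries was 0.989, a description over genes that share their lengths in both sets. Gpr25 was listed at 1.398, 0.412 and 0.709 TPM and Ffar2 at 1.90, 1.39 and 1.11 TPM in the 3 Meox2-cre libraries, near the wild-type levels. For the 7 receptors called higher and for Gpr25 and Ffar2, every Meox2-cre library lay below both Pax5(-/-) libraries, and the Meox2-cre mean was 0.774 to 1.73 times the wild-type mean. For both receptors called lower, every Meox2-cre library lay above both Pax5(-/-) libraries, with Gpr155 at 9.62 ± 0.929 TPM and Gpr146 at 7.002 ± 0.846 TPM (SD, n = 3). Larger Meox2-cre than wild-type levels were seen for Ptger4 (24.7 ± 3.52 against 12.0 ± 3.35 TPM) and S1pr1 (36.2 ± 2.07 against 24.6 ± 4.81 TPM), where build, software and mice all differ.

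The machinery around the receptors was followed with a list of 84 G protein subunits, RGS proteins, receptor kinases, arrestins, adenylyl cyclases and enzymes or transporters of the ligands. Of the 52 that passed the filter, 5 were called higher (Spns2, Adcy5, Adcy6, Rgs10 and Rgs18) and 0 were called lower by limma, which stayed 0 at an unadjusted p below 0.05 with the same fold and level. Only genes above 5 TPM in a genotype could be called, which held for 38 of the 52. Over all such genes, 3.35% were called higher and 3.89% lower. Without the fold and level thresholds, 14 were higher and 12 lower at an adjusted p below 0.05, against 15.6% and 21.5% of all genes tested. Of the 52, 3 passed the filter only through the Pax5(-/-) mean and had to be higher there (Adcy5, Gng7 and Rgs1). Another 5 passed only through the wild-type mean (Sphk1, Mfsd2b, Gnal, Rgs9 and Grk4). Of the 44 above 1 TPM in both genotypes, 4 were called higher and 0 lower. At an adjusted p below 0.05 (limma), 11 of the 44 were higher and 9 lower. The list was chosen with earlier results of these data known, so nothing is read from these shares. Spns2, the exporter of sphingosine-1-phosphate, was listed at 2.38, 4.49 and 3.31 TPM in wild-type and at 89.0 and 88.4 TPM in Pax5(-/-) libraries (log2 fold change 4.55, SE 0.24, adjusted p = 1.8e-05 from limma). Adcy5, an adenylyl cyclase, was listed at 0, 0.0736 and 0.0484 TPM in wild-type and at 12.8 and 16.8 TPM in Pax5(-/-) libraries (log2 fold change 4.81, SE 0.26). Adcy6, which makes cyclic AMP as well, had 1.85, 4.43 and 5.41 TPM in wild-type and 16.5 and 16.8 TPM in Pax5(-/-) libraries.

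Of the other genes that handle sphingosine-1-phosphate, the lyase Sgpl1 (30.2 ± 4.93 to 16.7 ± 0.589 TPM) and the phosphatase Sgpp1 (22.9 ± 1.82 to 14.3 ± 2.15 TPM) fell, with adjusted p-values of 0.0071 and 0.015 (limma). Neither Sgpl1 nor Sgpp1 was followed through the alternative settings, such as leaving out a library. Sphk2, the more abundant of the kinases that make it, had means of 44.7 TPM in wild-type and 40.8 TPM in Pax5(-/-) cells and did not pass (adjusted p = 0.38, limma). The kinase Sphk1 and the transporter Mfsd2b had lower means in Pax5(-/-) cells and stayed at or below 5.05 TPM. Mfsd2b is known from erythroid cells, and the erythroid marker list summed to 22.3 to 68.5 TPM in wild-type and 5.27 to 11.6 TPM in Pax5(-/-) libraries. Its part in the result was not tested. The RGS proteins Rgs10 (11.2 ± 4.09 to 39.4 ± 5.35 TPM) and Rgs18 (2.44 ± 0.902 to 8.40 ± 1.401 TPM), which shorten G protein signals, were called, but neither call held without the first wild-type library or without either Pax5(-/-) library, and that of Adcy6 did not hold without either Pax5(-/-) library. Of the most abundant members of the other classes, Gnai2 (1314 ± 177 to 1080.4 ± 39.7 TPM), Gnb2 (948 ± 108 to 754 ± 5.51 TPM), Adcy7 (43.4 ± 5.26 to 47.1 ± 2.37 TPM) and Ptges3 (147 ± 14.3 to 133 ± 12.9 TPM) did not pass the test. The receptor kinase Adrbk1 fell from 1110.2 ± 50.2 to 835 ± 27.03 TPM (adjusted p = 0.014, limma), and Rgs19 rose from 139 ± 11.5 to 212 ± 11.2 TPM (adjusted p = 0.004, limma). Without 1 of the Pax5(-/-) libraries, the adjusted p of Adrbk1 was 0.0981 or 0.149 and that of Rgs19 was 0.069 without the second.

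**Figure D4:**
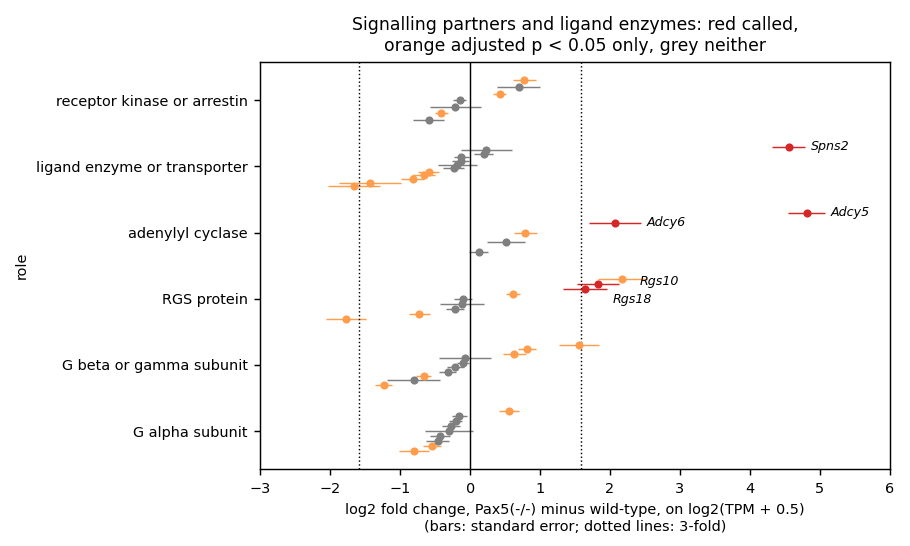
Log2 fold change (Pax5(-/-) minus wild-type, on log2(TPM + 0.5)) of the 52 signalling partners and ligand enzymes tested, by role, with standard errors as bars and the 3-fold threshold dotted. Spns2 and Adcy5 stand apart at 4.55 and 4.81, whereas the G protein subunits lie within 3-fold of no change.

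The cells were checked against markers of their lineage, of the gates and of other blood cells. The B lineage markers Cd79a, Vpreb1 and Igll1 were called lower in Pax5(-/-) cells, and Ly6d, which the Pax5-deficient gate uses, had a mean of 219 TPM in wild-type and 2646 TPM in Pax5(-/-) cells. Of 6 T cell markers, 0 were called by limma, and Cd3d, Cd3e, Cd3g and Cd8a were below 1 TPM in all 5 libraries. Cd4 was listed at 0.368 to 0.712 TPM in wild-type and at 3.97 and 5.88 TPM in Pax5(-/-) libraries, and neither mean exceeded 5 TPM. It passed the filter only through the Pax5(-/-) mean and had to be higher there, so it is given without a p. Lat was listed at 19.6 to 53.1 TPM in wild-type and at 44.2 and 43.04 TPM in Pax5(-/-) libraries. Among the markers of plasmacytoid dendritic cells, Pacsin1 and Siglech were called higher and Irf8 lower. Siglech also passed the filter only through the Pax5(-/-) mean and had to be higher there. The list of 6 summed to 317 to 366 TPM in wild-type and 169.6 to 260.1 TPM in Pax5(-/-) libraries. Among those of natural killer or innate lymphoid cells, Nkg7 was called higher and Klrb1c lower, Ncr1 was at most 0.167 TPM, and the list of 6 summed to 10.2 to 21.4 and 23.7 to 32.9 TPM. The 6 macrophage markers summed to 2.56 to 24.1 TPM in wild-type and 0.785 to 1.03 TPM in Pax5(-/-) libraries, and the 5 eosinophil, basophil or mast cell markers to 32.9 to 68.9 and 12.9 to 28.6 TPM. The part of these markers in the receptor results was not tested. In bulk libraries, fewer cells of one type and less RNA per cell cannot be told apart.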

How the data were processed

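After removal of ribosomal RNA reads, the authors aligned the wild-type and Pax5(-/-) reads to mm9 with TopHat 1.4.1a and counted them per gene with featureCounts 1.5.0 at default settings, without strand, on a modified refGene annotation. The Meox2-cre reads were aligned to mm10 with STAR 2.4.2a and counted likewise on refGene. The deposited values are TPM per library, calculated by the authors, and replicates were not pooled. The authors called genes with DESeq2 on counts, whereas the tables used here hold TPM only.

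Receptors were matched by the start of their name (Gpr, Ffar, P2ry, S1pr, Lpar, Ptger or Adora and a digit), ignoring marks appended to 8 of the 124 names. The test was that of limma 3.58.1 (R 4.3.3), with lmFit and a trended eBayes on log2(TPM + 0.5) and genotype as the only term. It covered entries whose mean exceeded 1 TPM in wild-type or Pax5(-/-) cells, and Benjamini-Hochberg adjustment ran over all of them. Immunoglobulin and T cell receptor entries were left out of the calls. In data simulated for this comparison on 11624 genes with 200 changed ones, 98 of those changed 6-fold, 93 of those changed 4-fold and 1 unchanged gene were called.

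The receptors and the lists of partners and markers were chosen with earlier results of these data known. The rule for the named genes took Gpr25 and Ffar2, every called receptor, every receptor above 5 TPM in a genotype, the receptors nearest the 3-fold threshold, receptor genes within 200000 bases of a called one, called partners, the most abundant partner of each role and Pax5. Gpr34, Gpr62, Gpr152, P2ry2, P2ry6, Ptger2, Ptger3, S1pr2, S1pr3, S1pr5, Sgpl1, Sgpp1, Sphk1, Sphk2, Mfsd2b, P2ry1, Gpr124, Gpr160, Gng7, Rgs1, Gnal, Rgs9 and Grk4 were named after their values were seen. Coordinates and exon overlaps are from GENCODE on mm9 and were found for 118 of the 124 entries. The alternatives were pseudocounts of 0.1 and 1, no filter or a minimum of 5 TPM, robust eBayes or eBayes without trend, median ratio scaling, quantile normalization, immunoglobulin and T cell receptor entries taken out, a 2-fold threshold, the treat test against 3-fold and leaving out each library. ChIP-seq samples were not used here. Tables and plots were made with Python 3.11.15, numpy 2.4.6, pandas 2.3.3 and matplotlib 3.10.9.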

Additional observations from a re-analysis of the deposited data

How the results depend on the processing

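All 9 receptors past the criteria as higher, Gpr25 and Ffar2 among them, were called under each alternative except the treat test against 3-fold, which called 5 higher and 0 lower receptors and 2 higher partner genes; a 2-fold threshold added Gpr65. Of the 2 receptors called lower, 1 was called with a pseudocount of 1, with no filter on low values and with quantile normalization, which all lost Gpr146. With no filter, 2 partner genes were called higher, and with the 2-fold threshold 1, Gngt2, was called lower. Leaving out each library in turn gave 9 to 9 receptors called higher, 1 to 3 called lower, 13 to 19 higher and 3 to 12 lower at an adjusted p below 0.05, 2 to 5 partner genes called higher and 0 to 0 lower. The 3 lower receptors at an adjusted p below 0.05 were found without either Pax5(-/-) library, and 3 called lower without the first wild-type library. Without a Pax5(-/-) library, the one left is assumed to vary like the wild-type ones. The log2 fold changes of Gpr108 and Gpr19, which passed no test, changed sign: that of Gpr108 lay between -0.0239 and 0.0883 with 1 library left out, and that of Gpr19 between -0.134 and 0.0217, at 0.0513 after median ratio scaling and at 0.0360 after quantile normalization. The causes were not tested. Median ratio scaling moved the median log2 fold change of all genes tested from -0.12 to -0.004. No paired analysis was possible because replicate numbers are not among the labels of these libraries. Depth in reads is unknown, and changes of receptors below 1 TPM in a genotype rest on few reads.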
